A study of Mus musculus with 2 samples.

Results

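The microRNA genes Mir451a, Mir451b, Mir144, Mir486 and Mir486b, whose products are known from red blood cells, were examined in small RNA libraries of the mouse adrenal gland. They were taken by name from the table of all 2202 annotated miRNA genes. GENCODE M21 lists 4 of the 5 under these symbols. The fifth, Mir486b, was read from the entry Mir3107, the earlier name of the hairpin that lies opposite Mir486. All 5 have an entry in both libraries, 4 had 10 or more reads over both libraries together and were tested, and 3 had 10 or more reads in each library.

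The samples were adrenal gland tissue of female B6CASTF1/J mice aged 25 days, the first generation of a cross of C57BL/6J with CAST/EiJ, a strain derived from wild mice. The labels name no treatment and form 1 group of 2 biological replicates, here library 1 (animal 3) and library 2 (animal 4), so there is no contrast between conditions. Both samples carry the same donor identifier, and the spread between the libraries holds animals, dissection and library preparation together. Libraries were made from RNA below 30 nucleotides. Library 1 held 2244073 reads and library 2 held 3912280 reads on the strand of a miRNA gene, and levels are given as CPM, the reads of a gene after scaling the library to 1000000 of these reads. Intervals and limits cover counting error only, since amplified reads that carry no molecular identifier may be copies of 1 molecule.

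Mir144 and Mir451a are transcribed together from a locus that the factor GATA1 switches on in red cell precursors. miR-451a is unusual in that its short hairpin is not cut by Dicer but by Argonaute 2. It helps precursors mature and resist oxidative stress, in part through Ywhaz, which encodes a 14-3-3 protein, and miR-144 represses Nfe2l2, which encodes the antioxidant factor NRF2. Mir486 lies in Ank1, the gene of the red cell membrane skeleton protein ankyrin 1, and its product is abundant in red cells and in striated muscle.

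The mature sequences show how the chromosome 11 genes differ, and are given with the seed (bases 2 to 8, which pair with target transcripts) in capitals. They come from the RefSeq annotation of GRCm38.p6, the assembly also called mm10, which held the hairpins of Mir144, Mir451a and Mir451b. Mir486 and Mir486b are named only.
miR-451a: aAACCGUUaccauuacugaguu
miR-144-3p: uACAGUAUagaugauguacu
miR-144-5p: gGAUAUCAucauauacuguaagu
miR-451b: uGGGAGCAgcaagagaaccgu

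Among the 1679 mature miRNA names of that table, which is not complete, no other carried any of these 4 seeds, and the 4 do not share a seed with each other. With bases 2 to 7 alone, miR-144-3p shared its stretch with miR-101a-3p of Mir101a, shown for comparison with those 6 bases in capitals.
miR-101a-3p: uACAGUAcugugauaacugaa

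The hairpins of Mir451a and Mir451b occupy the same bases on opposite strands. They are shown with the mature miRNA in capitals. Since both entries cover the same bases, the strand of a read decides which gene it is counted for.
Mir451a hairpin, plus strand: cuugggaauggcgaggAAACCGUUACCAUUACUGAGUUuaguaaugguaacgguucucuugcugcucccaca
Mir451b hairpin, minus strand: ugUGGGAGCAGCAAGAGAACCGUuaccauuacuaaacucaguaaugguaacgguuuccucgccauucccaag

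In mm10, Mir451a (ENSMUSG00000070065.1) and Mir451b (ENSMUSG00000104813.1) both span chr11:78073170-78073241, on the plus and the minus strand. Mir144 (ENSMUSG00000065401.1) spans chr11:78073005-78073070 on the plus strand, and 99 bases separate it from Mir451a. The 3 hairpins lie between genes: Eral1 on the minus strand has its 3′ end 134 bases beyond Mir451a, and Flot2 ends 12570 bases before Mir144. Mature miR-451a and mature miR-451b do not overlap, with 11 bases between them. The longest stretch that mature miR-451a and the Mir451b hairpin have in common, read 5′ to 3′, is 16 bases. No window of 20 bases in Mir451a, Mir451b or Mir144 recurred at another annotated miRNA gene position on either strand.

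**Figure D1:**
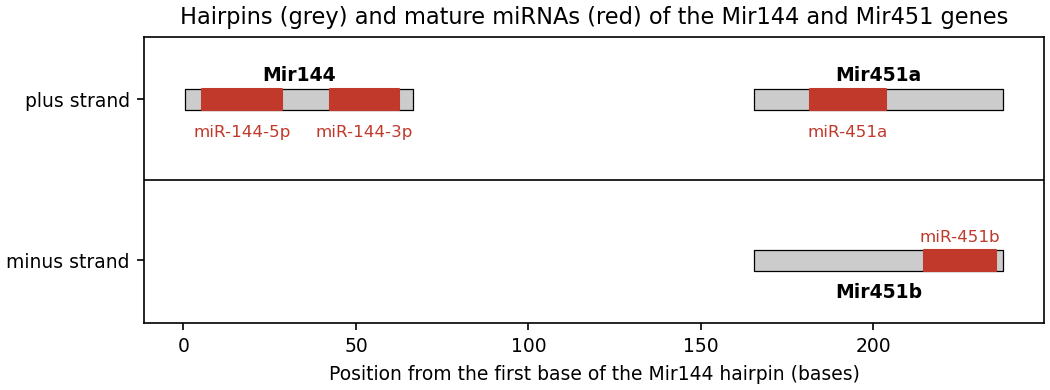
Map of the chromosome 11 locus, with position in bases from the first base of the Mir144 hairpin on the x axis and the strand on the y axis. Grey bars are hairpins and red bars mature miRNAs. Mir144 and Mir451a are 99 bases apart on the plus strand, and miR-451b lies opposite the far arm of the Mir451a hairpin, 11 bases past miR-451a.

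Mir451a was the most abundant of the 5 genes in both libraries, and its level differed widely between them. It had 1078 reads in library 1 and 94842 reads in library 2, or 480 and 24242 CPM. These are 0.0480% (95% Wilson interval 0.0453 to 0.0510%) and 2.42% (2.41 to 2.44%) of the miRNA reads. The gene stood at rank 110 of 2202 in library 1 and at rank 12 in library 2. The mean of 12361 ± 16802 CPM (SD, n = 2) has an SD larger than itself and describes neither library. The log2 ratio of library 2 over library 1, scaled by edgeR's TMM factors, was 5.74 (95% counting interval 5.66 to 5.83), or 53.5-fold higher in library 2. In these bulk samples, more red cells, more of the miRNA per cell and differences in dissection or library preparation cannot be told apart.

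Mir144, the other miRNA of that transcript, differed in the same direction by less. It had 342 reads in library 1 and 5675 in library 2, or 152 and 1451 CPM, with a mean of 801 ± 918 CPM (SD, n = 2). Its rank was 170 of 2202 in library 1 and 59 in library 2. The log2 ratio was 3.33 (95% counting interval 3.18 to 3.49), which is 10.1-fold higher in library 2. The tables give the gene as a whole, so reads of the 5p and the 3p arm were not separated.

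The proportion of the neighbours to each other was therefore not constant. Mir451a had 3.15 reads for each read of Mir144 in library 1 and 16.7 in library 2, a mean of 9.93 ± 9.59 (SD, n = 2). The odds of a read being from Mir451a and not from Mir144 were 5.30 times as high in library 2 (95% interval 4.67 to 6.01, two-sided Fisher's exact test on reads, adjusted p = 5.1e-113 over 3 pairs of genes). That test compares the reads of the 2 libraries and needs no scaling between them. Among 108 pairs of detected miRNA genes that follow each other on a strand within 10 kb, the log2 ratios of the members of a pair differed by a median of 0.51. For Mir144 and Mir451a they differed by 2.41, the largest value of the 108, followed by 2.15 for Mir99b and Mirlet7e. The level gap of the pair was less extreme: 1.66 on the log2 CPM scale in library 1, where the median over pairs was 2.10, and 4.06 in library 2, where it was 2.20.

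**Figure D2:**
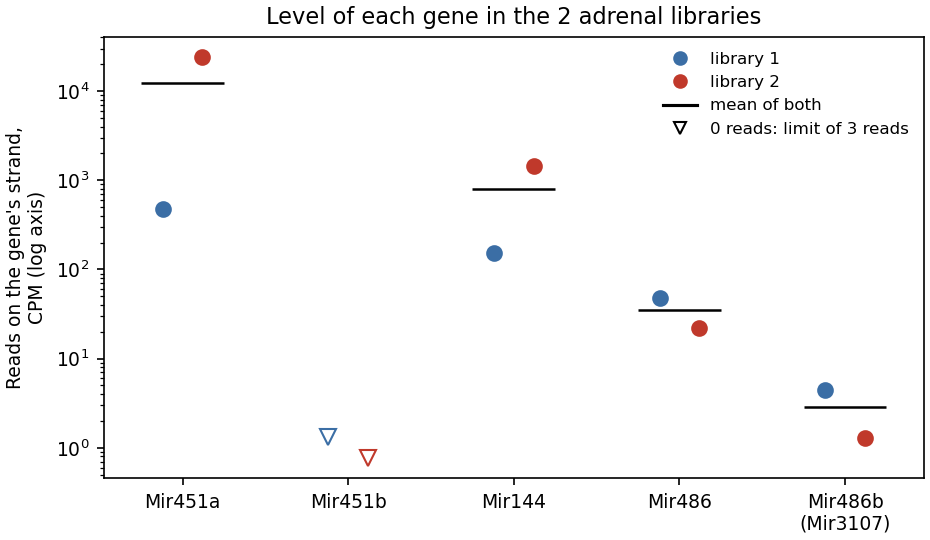
Reads on the strand of each gene, in CPM on a log axis, for library 1 (blue) and library 2 (red), with the mean of both as a bar. Open triangles mark the limit that 0 reads allow for Mir451b, 1.34 CPM in library 1 and 0.767 CPM in library 2. Mir451a and Mir144 are higher in library 2, and Mir486 and Mir486b are higher in library 1.

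Mir451b had 0 reads on its own strand in either library. With 3 reads as the limit that a count of 0 allows, its level was at most 1.34 CPM in library 1 and 0.767 CPM in library 2. The opposite-strand column of Mir451b held 1078 and 94842 reads, exactly the numbers counted for Mir451a, since both entries cover the same bases. Mir451a in turn had 0 reads on its opposite strand. In the column that ignores strand, neither gene had a read, because reads in both entries are set aside there as ambiguous. That column listed 304528 ambiguous reads in library 1 and 833566 in library 2, and the Mir451a reads equal 0.354% and 11.4% of them. Without strand, the most abundant of the 5 genes would thus be listed at 0 in both libraries, while Mir144, with no partner on the other strand, had the same 342 and 5675 reads with and without strand.

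**Figure D3:**
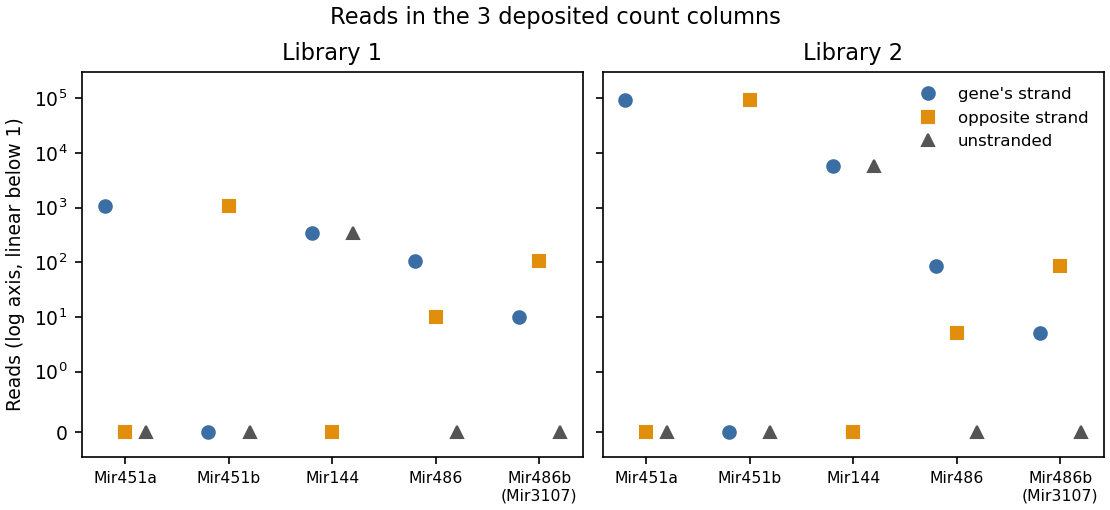
Reads of each gene in the 3 deposited count columns, on an axis that is logarithmic above 1 and linear below, with library 1 on the left and library 2 on the right. Circles are the strand of the gene, squares the opposite strand and triangles the unstranded column. The square of Mir451b sits at the height of the circle of Mir451a, and Mir144 alone has unstranded reads.

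Few reads were counted for Mir486, and these did not follow Mir451a and Mir144. Reads mapped to several places are left out, so the values below hold for placed reads and not for all miR-486. Mir486 had 107 reads in library 1 and 86 in library 2, or 47.7 and 22.0 CPM, with a mean of 34.8 ± 18.2 CPM (SD, n = 2) and rank 221 and 257 of 2202. The log2 ratio was -1.03 (95% counting interval -1.44 to -0.62), or 2.04-fold higher in library 1. Against Mir451a, the odds of a read in library 2 differed by 109-fold (95% interval 81.1 to 149, two-sided Fisher's exact test, adjusted p = 1.1e-150). Against Mir144 they differed by 20.6-fold (95% interval 15.0 to 28.3, two-sided Fisher's exact test, adjusted p = 3.7e-74).

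Mir486 (ENSMUSG00000070084.3) spans chr8:23142555-23142682 on the plus strand, in an intron of Ank1. Mir486b (ENSMUSG00000106471.1) spans chr8:23142573-23142662 on the minus strand, within the span of Mir486 and in an intron of the antisense RNA gene Gm15816. Mir486b had 10 reads in library 1 and 5 in library 2, or 4.46 and 1.28 CPM, with a mean of 2.87 ± 2.25 CPM (SD, n = 2). Its log2 ratio of -1.65 had a 95% counting interval from -3.14 to -0.16. The reads of each gene again filled the opposite-strand column of the other, and both had 0 unstranded reads.

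The counts of this pair are uncertain because both genes share sequence. No window of 20 bases in the chromosome 11 genes recurred at another annotated miRNA gene position. The rest of the genome was not searched. The Mir486 and Mir486b hairpins share a stretch of 22 bases, and 6 of 109 windows of 20 bases in Mir486 and 6 of 71 in Mir486b recurred at another position within the pair. These shares of windows do not give the share of reads lost. Mature sequences of the pair were not available here, so the shared stretch was not placed against them. The tables list reads mapped to several places apart from the genes. They made up 28.4% of library 1 and 27.5% of library 2 of all reads, and how many came from this locus was not measured. The 193 reads of Mir486 over both libraries are therefore those that could be placed, and neither its level nor its ratio stands for all miR-486.

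The order of the counted levels was the same in both libraries: Mir451a, Mir144, Mir486, Mir486b and Mir451b. For Mir486 and Mir486b this order holds only for the reads that could be placed. Mir451a was above Mir144 within each library, although its 480 CPM in library 1 lay below the 1451 CPM of Mir144 in library 2. The values of Mir144 did not overlap with those of Mir486, nor those of Mir486 with those of Mir486b. Mir486b in library 2, at 1.28 CPM, was below the limit for Mir451b in library 1. A read stands for 1 small RNA, so no length scale was applied, and ligation and amplification can favour some sequences. The 5 genes together took 0.0685% of the miRNA reads in library 1 (95% Wilson interval 0.0652 to 0.0720%) and 2.57% in library 2 (2.56 to 2.59%). Mir451a made up 70.1% of those reads in library 1 and 94.3% in library 2.

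These ratios have to be read against the rest of the table. A two-sided exact binomial test, applied where a gene reached 10 reads over both libraries, compares these 2 libraries by counting error alone. Of 411 genes tested, 240 passed an adjusted p of 0.05 (58.4%). Of the 4 tested red blood cell genes, 3 passed: Mir451a and Mir144 with an adjusted p at or below 1e-300, the smallest value written, and Mir486 with 2.1e-06 in the exact binomial test. Mir486b did not pass (adjusted p = 0.0518 in the exact binomial test). With 1.5-fold required as well, the same 3 passed, against 31.4% of all tested genes. By direction, Mir451a and Mir144 were higher in library 2, as were 15.1% of all tested genes, and Mir486 was higher in library 1, as were 16.3%. Without the filter on low counts, the share of calls that were higher in library 2 was 66.4% in place of 48.1%.

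The binomial test takes no spread beyond counting into account. edgeR's exact test was run with a common coefficient of variation of 0.387, estimated over all tested genes from the same 2 libraries taken as 1 group. It sets 1 library against 1 library, so it ranks a gene's difference against those of the other genes and does not measure variation between animals. It passed 5 of 411 genes (1.22%). Mir451a (adjusted p = 2.1e-06) and Mir144 (adjusted p = 0.0131) were among them in edgeR's exact test. Mir486 and Mir486b were not, each with an adjusted p of 1 in edgeR's exact test. The other 3 were Mir185, Mir26a-2 and Mir122. Of 65 windows of 20 bases in Mir26a-2, 6 recurred at Mir26a-1, so its count is uncertain. No window of Mir185 or Mir122 recurred. By the size of the log2 ratio in either direction, Mir451a stood first of the 411 genes, Mir144 at rank 4, Mir486b at rank 21 and Mir486 at rank 75.

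**Figure D4:**
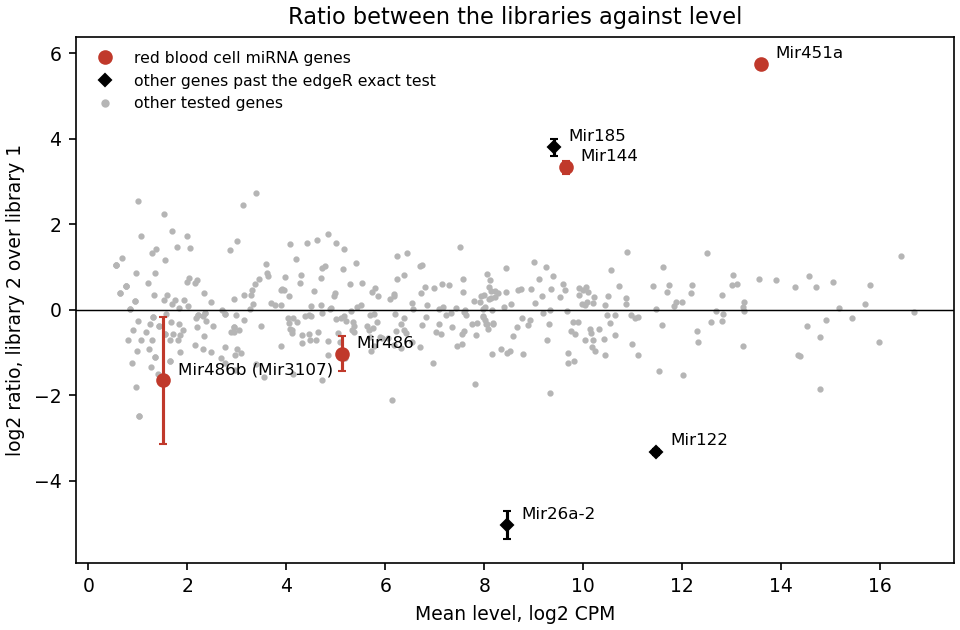
Log2 ratio of library 2 over library 1 against the mean level in log2 CPM for the 411 tested miRNA genes, with red circles for the red blood cell genes, black diamonds for other genes past edgeR's exact test and grey points for the rest. Bars are 95% counting intervals. Mir451a at 5.74 and Mir144 at 3.33 lie above the grey points of similar level, while Mir486 at -1.03 lies among them.

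The genes with the most similar ratio were sought among those with 200 or more reads summed. With 2 libraries, likeness is only the distance between 2 log2 ratios. Nearest to Mir451a, of 238 genes, were Mir185 at 3.81 (214 and 4927 reads), Mir144 at 3.33 and Mir153 at 1.78 (30 and 171 reads). The distances on the log2 scale were 1.94, 2.41 and 3.97, so none was close. Nearest to Mir144 were Mir185, Mir153 and Mir138-2, at distances of 0.47, 1.56 and 1.78. Nearest to Mir486 were Mirlet7a-1 at -1.03, Mir101a at -1.02 and Mir299a at -1.02, in a range that many genes share. Mir101a, whose miRNA shares 6 seed bases with miR-144-3p, had 874 and 707 reads, or 389 and 181 CPM, and so was 2.03-fold higher in library 1 where Mir144 was lower. A window of 20 bases of Mir101a recurred at Mir101b, and its count is uncertain. Mirlet7a-1, Mir299a and Mir138-2 were not searched for shared windows, so their counts may be uncertain too.

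Other miRNAs studied in red cell maturation or abundant in red cells mostly differed little. Of 26 such genes, all were tested and 25 had 10 or more reads in each library. With an adjusted p under 0.05 in the exact binomial test and 1.5-fold, 7 were higher in library 2, 2 were higher in library 1 and 17 were not called. The shares of all 411 tested genes called in these directions were 15.1% and 16.3%, and with library size alone as the scaling the list had 6 genes in each direction. The median log2 ratio of the list was 0.33, beside -0.07 for all tested genes. Mir185 was 14.0-fold higher in library 2, with 95.4 CPM in library 1 and 1259 CPM in library 2, and it was the only gene of the list to pass edgeR's exact test (adjusted p = 0.0033).

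Mir16-1, which with Mir16-2 gives the widely expressed cell cycle regulator miR-16, was next at 2.55-fold. It had 1118 CPM in library 1 and 2686 CPM in library 2. Mir107 was 2.02-fold and Mir16-2 1.96-fold higher in library 2. The 2 genes higher in library 1 were Mir222, which represses the stem cell factor receptor gene Kit, at 1.80-fold (229 and 120 CPM), and Mir24-1 at 1.56-fold (74.0 and 44.7 CPM). Of the 26 genes, 10 share a window of 20 bases with another miRNA gene, among them Mir16-1, Mir16-2, Mir107 and Mir24-1, and their counts are uncertain. No such window was found in Mir185 or Mir222.

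**Figure D5:**
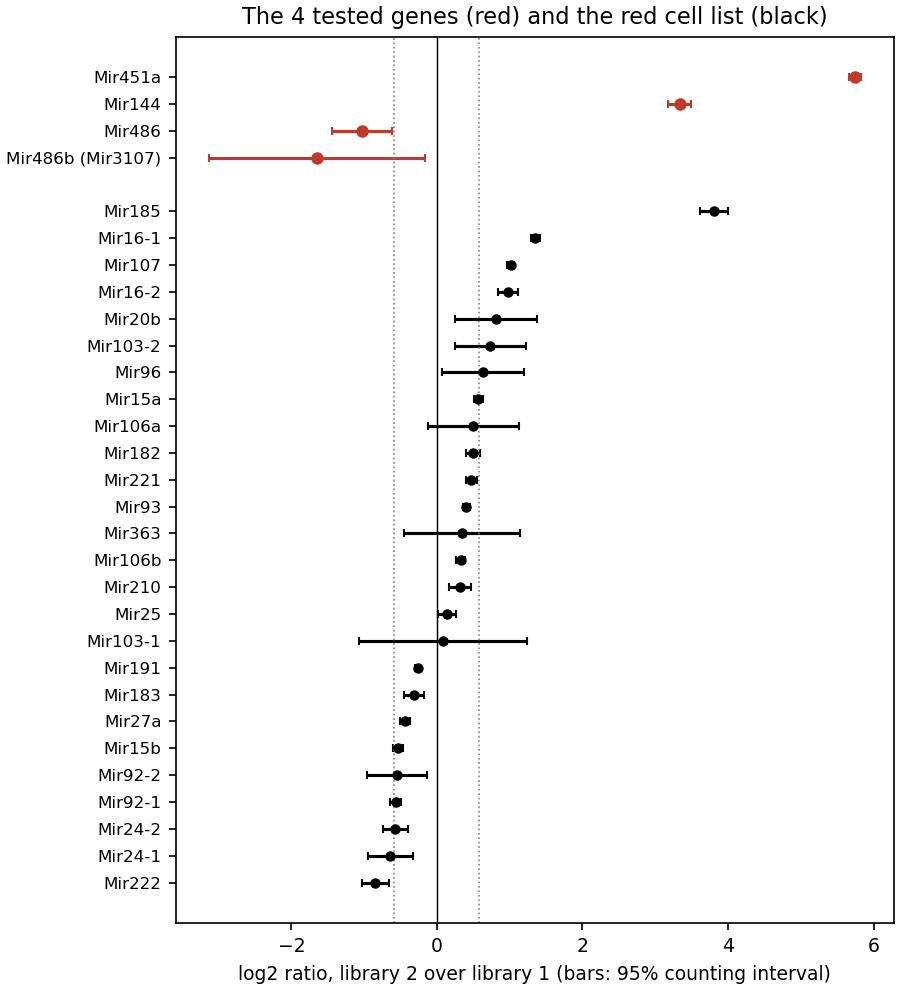
Log2 ratio of library 2 over library 1 on the x axis, with 95% counting intervals, for the 4 tested red blood cell genes (red) and the 26 genes of the red cell list (black). Dotted lines mark 1.5-fold. Mir451a, Mir144 and Mir185 stand apart at 3.33 or more, and the other listed genes lie between -0.84 and 1.35.

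Markers of other cell types moved with the libraries in different directions. The endothelial miRNA gene Mir126a took 5.38% of the miRNA reads in library 1 and 12.1% in library 2. The leukocyte genes, 6 of 7 detected and Mir142b at 0 reads in both libraries, together took 0.364% and 0.266%. Mir142 was 1.80-fold higher in library 2 and the neutrophil miRNA gene Mir223 4.34-fold higher in library 1. Of the other detected genes, Mir150, Mir342 and Mir146 had log2 ratios of -0.92, -0.48 and -0.45, and Mir155 of 0.06. Mir122 of hepatocytes took 0.518% and 0.0491%. Smooth muscle and fibroblast genes took 2.89% and 4.18%, most of it Mir143, with 61247 of 64943 and 158654 of 163667 reads. Log2 ratios of library 2 over library 1 were 0.66 for Mir143, 1.63 for Mir199b, -0.02 for Mir145a, -0.09 for Mir199a-2 and -0.71 for Mir214. Mir199a-1 had too few reads for the test. Endocrine and neuroendocrine genes took 4.18% and 4.25%, led by Mir375 with 37574 and 36561 CPM. Mir375 differed little, at 0.05, while Mir7b, Mir7-1 and Mir7-2 were higher in library 2, at 0.59, 0.44 and 1.26. The 10 striated muscle genes had 16 and 14 reads in all, 6 of them with 0 reads in both libraries. The counts of all these marker genes leave out reads mapped to several places. Among the marker genes, shared stretches were searched for in Mir122 only, so the ratios of the others hold for placed reads. The striated muscle counts therefore do not show how much muscle miRNA was present. What part blood or vessel content of the dissected glands has in the values of Mir451a and Mir144 was not tested.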

How the data were processed

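For every library the authors deposited raw counts of reads in miRNA genes, from reads mapped to mm10 per the labels and the GENCODE M21 annotation per the deposited text. The aligner, counter and trimming were not given in the sources used here. Each table has 3 unnamed columns of counts, read from their layout as unstranded and 2 stranded ones, and the strand of the gene was assigned to whichever stranded column held more reads, the same one in both libraries. Totals leave out 4 rows without a gene name. Unmapped reads were 33.8% of library 1 and 27.8% of library 2.

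Levels are CPM. Ratios add 0.5 read and use TMM effective library sizes over genes with 10 or more reads summed (edgeR 4.0.16, R 4.3.3). Differences were tested over all such genes with exact binomial tests, adjusted by Benjamini and Hochberg. With 1 group, edgeR's quasi-likelihood test has no coefficient. The p-values of the binomial and Fisher's tests cover counting error only. Those of edgeR's exact test rank a gene's difference against those of the other genes. None measures variation between animals. edgeR's exact test with a common dispersion, DESeq2 1.42.0 size factors, library size alone, other filters and the unstranded column were alternatives. Scripts were tested on simulated data.

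The 5 genes and all lists were chosen with earlier results of these data known. Named genes are the 5 genes, the largest ratios of the red cell list, the 3 genes nearest in ratio and the markers. Mir222, Mir24-1, Mir26a-2, Mir99b, Mirlet7e and the seed comparison were chosen after values were seen. The list names Mir92a-1, Mir92a-2 and Mir146a were matched to Mir92-1, Mir92-2 and Mir146 through RefSeq synonyms. Other versions were Python 3.11.15, pandas 2.3.3, numpy 2.4.6, scipy 1.17.1 and matplotlib 3.10.9.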

Additional observations from a re-analysis of the deposited data

How the results depend on the processing

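No paired analysis was possible because the study has 1 group, and no ratio can be had without either library. Without replicate 1 or without replicate 2, the level was 480 to 24242 CPM for Mir451a, 152 to 1451 CPM for Mir144, 22.0 to 47.7 CPM for Mir486 and 1.28 to 4.46 CPM for Mir486b, and the Mir451a to Mir144 ratio 3.15 to 16.7. Under all scalings and filters run, the log2 ratio was 5.66 to 5.91 for Mir451a, 3.25 to 3.50 for Mir144 and -1.12 to -0.86 for Mir486. Leaving out the filter on low counts shifted all log2 ratios by 0.17.

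With edgeR's exact test in place of the binomial test, 5 genes were called in place of 240, and 5 in place of 129 at 1.5-fold. The log2 ratio of Mir486, -1.03, then no longer passed (adjusted p = 1). The red cell list had 1 gene higher in library 2 and 0 in library 1. With library size alone, the log2 ratio of Mir486b was -1.73 and passed (adjusted p = 0.048 in the exact binomial test), and 6 listed genes were higher in library 1. With DESeq2 size factors, with the unstranded column or with no filter, that count was 1. In the unstranded column the levels of Mir451a, Mir486 and Mir486b and the Mir451a to Mir144 ratio were 0. With all mapped reads as the library size, the mean was 6003 CPM for Mir451a, 386 CPM for Mir144, 15.5 CPM for Mir486 and 1.26 CPM for Mir486b. Of the log2 ratios and counts, 50 other values had the same direction and side of the threshold or lay within 1.5 times. For the levels and the read ratio, the SD of 2 libraries says nothing of stability, since either library lies within it by construction. The edgeR exact test for single genes, the filter of 100 reads and the counts of the list were chosen after seeing the data.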
